A study of Mus musculus with 2 samples.

Results

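The regions described here are STAT5 binding regions of the IL-2 library that lay upstream of a gene and more than 1 kb from its start. They were chosen by position alone. Each region was assigned to the listed gene whose start was nearest, and was kept where that gene placed it upstream at over 1000 bp. In all, 774 of the 5703 IL-2 regions in the table met this rule (13.6%, 95% Wilson interval 12.7% to 14.5%, counting error only), and they were nearest to 681 of its 4934 genes. They are called upstream regions below.

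The cells came from C57BL/6 mice that had received OT-I CD8 T cells, whose transgenic receptor recognises the ovalbumin peptide SIINFEKL. That peptide, given with agonists of CD134 and of CD137, which are costimulatory receptors, primed the cells in the animal, and effector cells were sorted from spleen 4 days later. The control group was 1 library of cells that got no IL-2. In the IL-2 group 1 library came from cells kept for 1 hour with IL-2 at 0.5 µg/ml. Chromatin immunoprecipitation followed by sequencing (ChIP-seq) with a STAT5 antibody was run on both, and the design addressed where IL-2 brings STAT5 to the genome. Both groups thus carried the same receptor transgene and the same priming, and neither represents resting or naive cells. The label of the control gives its treatment as none and does not say that its cells were kept for the same hour. The hour of incubation and IL-2 therefore cannot be told apart in any comparison below. How many animals were pooled, and the sort gate, were not given in the sources used here. With 1 library per group no difference below has a replicate check or a test.

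STAT5 is a latent transcription factor that JAK kinases phosphorylate at the IL-2 receptor; dimers then enter the nucleus and bind DNA. In T cells it is known for binding both promoters and distal enhancers of genes for cytokine receptors, effector molecules and feedback inhibitors. Distal regions are usually assigned to genes by distance, and that assignment is not evidence of which gene they control. The palindromic element TTCNNNGAA is the known core of STAT5 DNA recognition and is called the STAT5 motif here.

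Sequence could be read only where an upstream region fell in a RefSeq promoter window of build GRCm38.p6, which covers 250 bases before to 50 after a RefSeq gene start. There were 10 upstream regions in such a window, since RefSeq holds starts that the deposited table does not list. The motif, which reads the same on both strands, occurred in a window of 5 of these 10 regions. Counted by window, 6 of the 12 that held an upstream region had the motif. Among all 32851 windows 8.30% held it, and among the 437 windows that held any IL-2 region 46.2% did. The windows of 3 upstream regions with the motif are shown because the motif lay within 69 bp of the region's position in each. They run 5′ to 3′ on the strand of the RefSeq gene, and capitals mark the motif.
Region 7295 bp upstream of Tceb3, window of LOC115489947, chr4:136028835-136029134, minus strand: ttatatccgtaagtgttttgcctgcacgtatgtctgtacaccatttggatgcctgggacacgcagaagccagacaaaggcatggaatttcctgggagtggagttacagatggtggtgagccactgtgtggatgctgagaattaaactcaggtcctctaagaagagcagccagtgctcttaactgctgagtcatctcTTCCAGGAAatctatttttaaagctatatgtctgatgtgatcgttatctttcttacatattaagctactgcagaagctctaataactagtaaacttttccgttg
Region 6306 bp upstream of Eid3, window of Txnrd1, chr10:82860091-82860390, plus strand: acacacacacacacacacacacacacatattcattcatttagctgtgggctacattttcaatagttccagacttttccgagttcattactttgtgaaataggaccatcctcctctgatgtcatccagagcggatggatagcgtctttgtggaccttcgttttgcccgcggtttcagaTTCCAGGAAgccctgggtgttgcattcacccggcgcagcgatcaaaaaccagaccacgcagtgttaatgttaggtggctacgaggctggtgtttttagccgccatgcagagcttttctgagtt
Region 4480 bp upstream of Klc3, window of a Klc3 start, chr7:19404055-19404354, minus strand: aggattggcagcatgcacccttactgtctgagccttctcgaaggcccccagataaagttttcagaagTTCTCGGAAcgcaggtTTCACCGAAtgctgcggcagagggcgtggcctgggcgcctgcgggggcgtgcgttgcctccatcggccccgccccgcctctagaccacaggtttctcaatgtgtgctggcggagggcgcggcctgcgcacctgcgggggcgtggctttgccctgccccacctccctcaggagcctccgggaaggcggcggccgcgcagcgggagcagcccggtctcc

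The motif copy TTCCAGGAA of the Tceb3 window was centred 10 bp from the region's position, and the same 9 letters in the Txnrd1 window were 48 bp away. The Klc3 window held 2 copies, TTCTCGGAA at 53 bp and TTCACCGAA at 69 bp. In another case, upstream of Tor1aip1 and in a window of Tor1aip2, TTCTAGGAA lay 95 bp away. Positions mostly fell on a 16 bp grid (95.5% of all regions), so distances under that step are not resolved.

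The other 5 regions had no copy of these letters in any window. The windows of 2 of those regions are shown for comparison, with no capitals because there is no motif to mark.
Region 1128 bp upstream of Dgka, window of a Dgka start, chr10:128745035-128745334, minus strand: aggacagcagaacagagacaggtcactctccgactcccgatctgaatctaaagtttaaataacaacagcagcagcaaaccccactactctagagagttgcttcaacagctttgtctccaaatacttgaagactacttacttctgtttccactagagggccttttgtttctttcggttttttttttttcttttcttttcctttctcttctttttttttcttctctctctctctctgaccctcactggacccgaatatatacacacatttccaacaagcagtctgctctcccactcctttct
Region 1977 bp upstream of Birc2, window of a Birc2 start, chr9:7837008-7837307, minus strand: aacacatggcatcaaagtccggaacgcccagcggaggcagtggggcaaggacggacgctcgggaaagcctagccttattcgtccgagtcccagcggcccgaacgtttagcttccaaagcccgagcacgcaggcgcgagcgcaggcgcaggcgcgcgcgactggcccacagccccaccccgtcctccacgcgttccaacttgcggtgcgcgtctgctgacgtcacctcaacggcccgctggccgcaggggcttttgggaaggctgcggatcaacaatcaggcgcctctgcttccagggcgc

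Peak heights, in the table's signal units, were known for some of these regions. With the motif, the Eid3 and Txnrd1 region reached 84 with IL-2, from 4 in control, and the Klc3 region had 5 and 64. Of the regions without it, Dgka, a diacylglycerol kinase gene, had 10 and 28. Birc2, which encodes an inhibitor of apoptosis, had 3 and 11. S100a2 had 4 and 12, and 1110034G24Rik had 2 and 9. For C920009B18Rik the heights solved from gene means were 3 and 17. Both IL-2 heights with the motif were thus above all 5 without it, over 7 regions in all and with no test. A missing copy says only that these letters are not in the window.

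Upstream regions thinned with distance up to about 7 kb. There were 677 upstream regions in the first kb, which are not members, then 147 from 1 to 2 kb, 115 from 2 to 3 kb, 59 from 6 to 7 kb and 63 from 9 to 10 kb. The median distance was 4496.5 bp (interquartile range 2354.75 to 7353.75 bp), from 1003 to 11262 bp. Only 33 lay beyond 10 kb, and the table listed no region more than 13164 bp upstream of any gene, so the far end is set by the table. On the inner side, the region nearest the limit was that of Mex3a at 1003 bp, with heights of 4 and 23. Ddx39b and Whsc1l1 followed at 1010 bp without a height, then Cds2 at 1017 bp with 4 and 72 and 1700018L02Rik at 1019 bp with 6 and 28. Just outside were Gm10073 at 1000 bp with 4 and 14, Nup160 at 991 bp, Gm6990 at 988 bp and Fam65b at 978 bp. The farthest were the regions of P2ry13 at 11262 bp, Zfp217 at 11117 bp with heights of 7 and 34, and F2rl2 at 10984 bp.

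**Figure D1:**
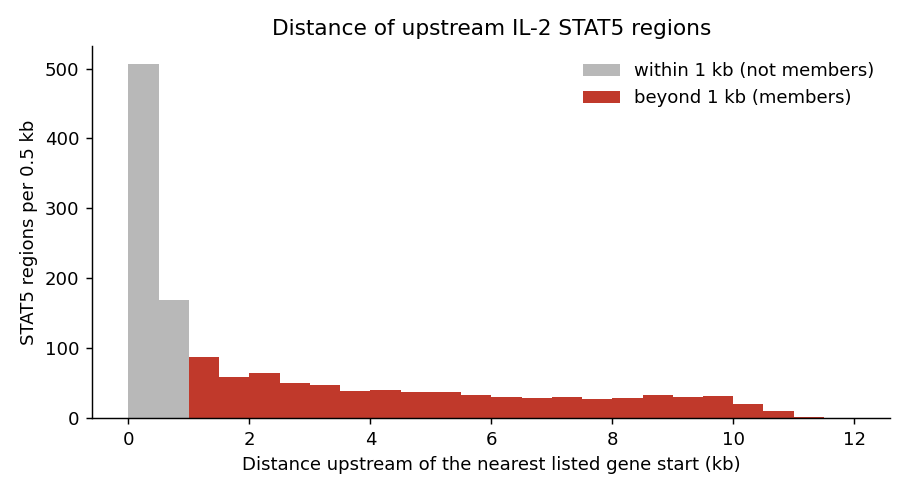
Number of upstream IL-2 STAT5 regions in steps of 0.5 kb (vertical axis) against distance to the nearest listed gene start in kb (horizontal axis), grey within 1 kb and red beyond it. The first kb holds 677 regions and the next 147. Counts per kb then fall to 59 from 6 to 7 kb and stand at 63 from 9 to 10 kb.

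The name "upstream" held only relative to the assigned gene. Of the 774 regions, 505 were upstream of every gene that listed them, 144 lay within another listed gene, and 125 lay downstream of another gene and within none. Between genes on opposite strands lay 64. RefSeq gene bodies of any kind covered 328 upstream regions (42.4%), and for 184 of these the table placed the region inside no listed gene. RefSeq bounds can differ from those of the table. For example, the regions of Cds2 and Pglyrp2 lie within the RefSeq bodies of those same genes. A RefSeq start lay within 1 kb of 48 of the 758 regions on chromosomes with RefSeq windows. That start belonged to the same gene in 19 cases, to a gene that the table does not list in 24 and to another listed gene in 5.

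The types of the nearest genes were read from RefSeq. Of the matched upstream regions, 611 of 737 (82.9%) were nearest to a protein-coding gene, against 91.0% of the 5564 matched regions in all. Long noncoding RNA genes took 10.3% against 5.90%, and miRNA genes 3.53% against 0.971%. These shares are a description of the table with no test.

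Peak heights of single regions were available only where a gene that listed the region had no other, so 314 of the 774 upstream regions have one (40.6%), and regions of genes with several are mostly missing. In the control library the height was 5 at the median (interquartile range 4 to 6, range 1 to 40). In the IL-2 library it was 22.5 (15 to 36, range 9 to 148). Ratios are on a log2 scale, after a pseudocount of 5 was added to the height of each library, which understates the fold of low heights. Its median was 1.49 (interquartile range 1.09 to 2.13). All 314 were higher with IL-2 as deposited, a direction that the listing favours, since every region was called in the IL-2 library. A ratio of at least 2 was reached by 264 of 314 upstream regions (84.1%, Wilson interval 79.6% to 87.7%), where 80.4% of all 2245 regions with a height reached it. A ratio of at least 4 was reached by 86 (27.4%, 22.8% to 32.6%), where 21.1% of all regions did. Both shares stood a few points over the background, and the difference was not tested.

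How the authors scaled the libraries was not given in the sources used here. With both libraries set to the same median over all regions with a height, which shifted the median log2 ratio of all regions by -1.35, 172 upstream regions were higher with IL-2, 139 lower and 3 equal. The share on the IL-2 side was then 54.8%, against 48.6% of all regions, and 42 kept a ratio of at least 2. Equal medians place a near-even split of all regions by construction (median log2 ratio -0.024). The split therefore does not show whether signal rose with IL-2. Directions stated below for regions of moderate height rest on the deposited scaling.

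**Figure D2:**
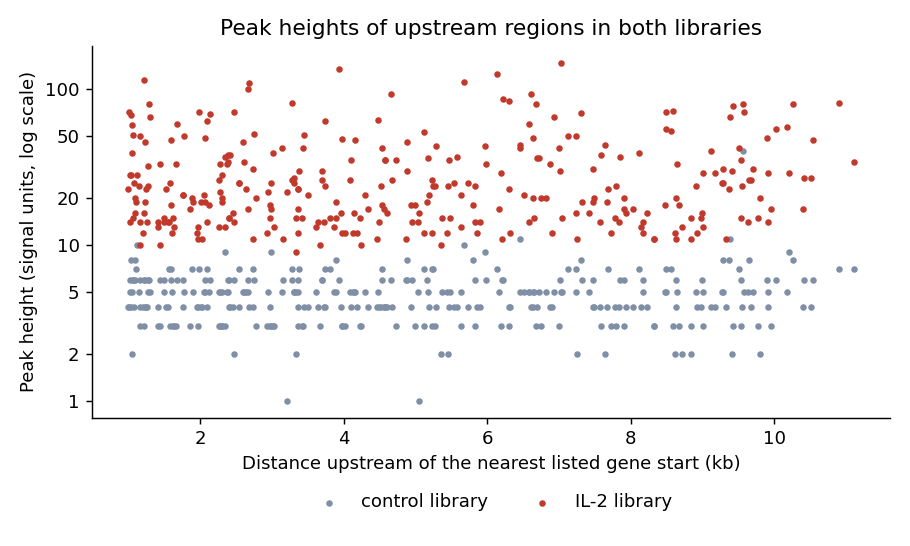
Peak height in signal units on a log axis against distance upstream in kb for the 314 upstream regions with a height, with 1 grey point for the control library and 1 red point for the IL-2 library per region. The median control height is 5 and the median IL-2 height 22.5 over all distances together, and the grey point at 40 is the region upstream of Txndc11.

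By distance from the start, the median IL-2 height was 21 in the 57 regions from 1 to 2 kb, 21 in the 111 from 2 to 5 kb and 24 in the 146 beyond 5 kb. Median log2 ratios over the same bins were 1.39, 1.44 and 1.55. Shares with a ratio of at least 2 were 77.2% (Wilson interval 64.8% to 86.2%), 82.9% (74.8% to 88.8%) and 87.7% (81.4% to 92.1%), which overlap. In steps of 1 kb the medians varied more, from 16 (25 regions from 8 to 9 kb) to 34.5 (26 from 6 to 7 kb) and 47 (9 from 10 to 11 kb). Median log2 ratios in those 3 steps were 1.22, 2.06 and 2.24. Across the 314 regions, Spearman's correlation of distance with IL-2 height was 0.058, and that of control with IL-2 height was 0.346. Both are descriptions over regions of the same 2 libraries, which share depth and local read density.

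Heights were also set out by what else lists the region. The 60 with a height that lay within another listed gene had an IL-2 median of 25.5 and a median log2 ratio of 1.64, against 21 and 1.38 for the 187 upstream of every listed gene. In the 67 that lay downstream of another gene these were 23 and 1.44. Shares with a ratio of at least 2 were close, at 83.3%, 83.4% and 86.6%. Upstream regions within 1 kb of a RefSeq start had a median IL-2 height of 20 (19 regions), and those with no such start within 1 kb had 23 (288). By type of the nearest gene, the median was 23 for 242 regions at protein-coding genes and 23 for 37 at long noncoding RNA genes, of which 85.1% and 75.7% reached a ratio of 2. The Wilson interval of the latter, 59.9% to 86.6%, is wide.

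The share of regions with a height differed by position, from 64.9% within 1 kb of a start to 21.4% in genes beyond 10 kb. It was 40.6% upstream and 37.1% downstream, so the classes are covered unequally. Among regions with a height, upstream regions had the highest median IL-2 height, 22.5, close to that of downstream regions. Regions within 1 kb of a start had a median of 16 (1019 regions with a height), regions inside genes 18 from 1 to 10 kb (294) and 20 beyond 10 kb (420), and downstream regions 21 (198). Median log2 ratios were 1.22, 1.35, 1.46 and 1.56 in that order, beside 1.49 for upstream regions. A ratio of at least 2 was found for 75.9% of regions within 1 kb of a start (Wilson interval 73.1% to 78.4%), which does not overlap the interval of upstream regions. For regions in genes beyond 10 kb it was 87.9%, and for downstream regions 85.9%, both overlapping it. Control medians were 4 or 5 in every class. These intervals count regions within 2 libraries and are no test of position.

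**Figure D3:**
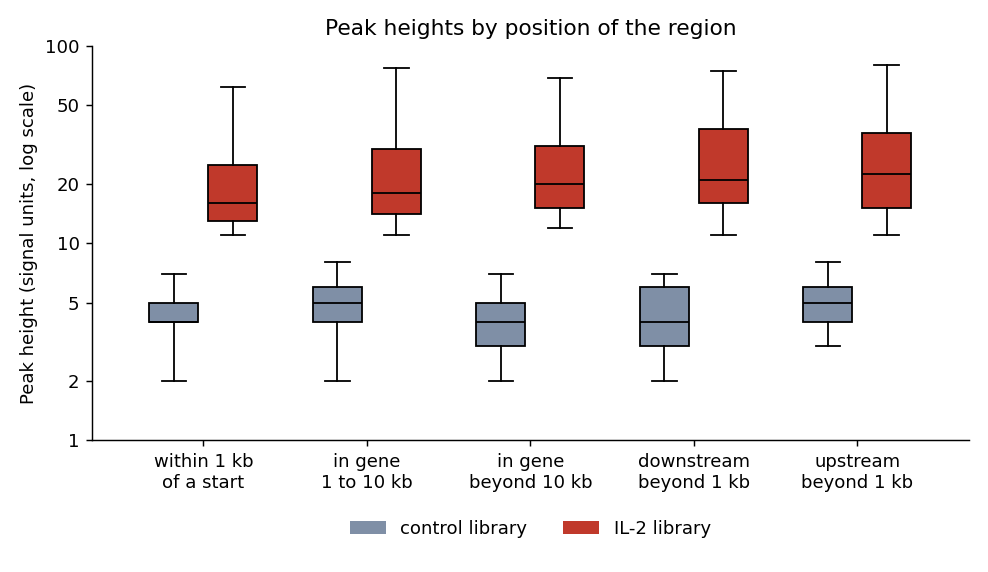
Peak height in signal units on a log axis for 5 position classes, with grey boxes for the control library and red boxes for the IL-2 library (box, quartiles; line, median; whiskers, the 5th and 95th percentiles). Red medians run from 16 within 1 kb of a start to 22.5 in upstream regions, and grey medians are 4 or 5 throughout.

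There were 7 upstream regions with an IL-2 height of at least 100 (2.23%, against 1.34% of all regions with a height). At least 50 was reached by 48 (15.3%, against 10.7%), while 146 (46.5%) were at 20 or lower. The 31 highest held 28.1% of the summed IL-2 height. In 278 cases an upstream region (35.9%) had another IL-2 region within 5 kb, against 29.6% of all regions. Within 2 kb the shares were 9.82% and 9.03%.

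The 15 largest ratios stood at genes of varied function. Highest was a region on chromosome 3 at 88510368, 7036 bp upstream of Lmna, which encodes lamins of the nuclear envelope. Its height was 148 with IL-2 and 5 in control, a log2 ratio of 3.94. Next, with 6 and 136, was a region 3932 bp upstream of Gpx8, a glutathione peroxidase family gene (log2 ratio 3.68). It lies within Cdc20b. On chromosome X at 7570912 a region 2688 bp upstream of the noncoding gene 4930524L23Rik, named Flicr in RefSeq, had 4 and 110 (3.68). It also lies within Ppp1r3f and 8764 bp upstream of Foxp3, the lineage factor of regulatory T cells.

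Gbp4, an interferon-induced GTPase gene, had a region 6142 bp upstream with 7 and 126, the only one listed for it. A region 1220 bp upstream of Lta4h had 6 and 115. Lta4h encodes the enzyme that makes leukotriene B4, a chemoattractant. Map2k4, whose product activates JNK, had a region 6679 bp upstream with 3 and 80. The region of Rln1, a relaxin hormone gene, had 4 and 94 and also lies downstream of Plgrkt. These 4 regions had log2 ratios from 3.41 to 3.46.

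The Eid3 region shown above, with 4 and 84, lies 21 bp from a RefSeq start of Txnrd1, which encodes thioredoxin reductase, although the table places it 26369 bp inside that gene. BC106179, a noncoding gene, had a region 9423 bp upstream with 3 and 78. That region lies within St6gal1, a sialyltransferase gene. Ankrd13c had 3 and 73, 1700025M24Rik had 6 and 101, and Sult5a1, a sulfotransferase gene, had 6 and 94. Close to the limit were the regions of Prkd2, a protein kinase D gene, with 2 and 59 at 1046 bp, and of Cds2, an enzyme of phospholipid synthesis, with 4 and 72. RefSeq places the Cds2 region within 1 kb of a Cds2 start and inside that gene. The Cds2 region also lies 9060 bp upstream of Pcna, the replication clamp gene. Last of the 15 was D930007P13Rik with 6 and 87 (log2 ratio 3.06). All 15 kept a ratio of at least 2 with the libraries scaled to the same median, which their choice as the largest ratios largely settled beforehand.

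At the low end, control heights were 6 to 9 and IL-2 heights 11 to 17. The 8 smallest log2 ratios ran from 0.54 to 0.66 as deposited, and all 8 became negative, from -0.95 to -0.80, with the libraries scaled to the same median. Their choice as the smallest ratios largely settled that change as well. Traf2, which encodes an adaptor of tumour necrosis factor receptors, had 7 and 14, as had Nccrp1. The region of Abca7, a lipid transporter gene, had 9 and 17, and it lies within Cnn2. Pts had 6 and 12, and the miRNA gene Mir23a had 8 and 15. Pglyrp2, 1700016L21Rik and 4833427F10Rik each had 6 and 11. As deposited, none of the 314 had a ratio of at most 0.5.

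**Figure D4:**
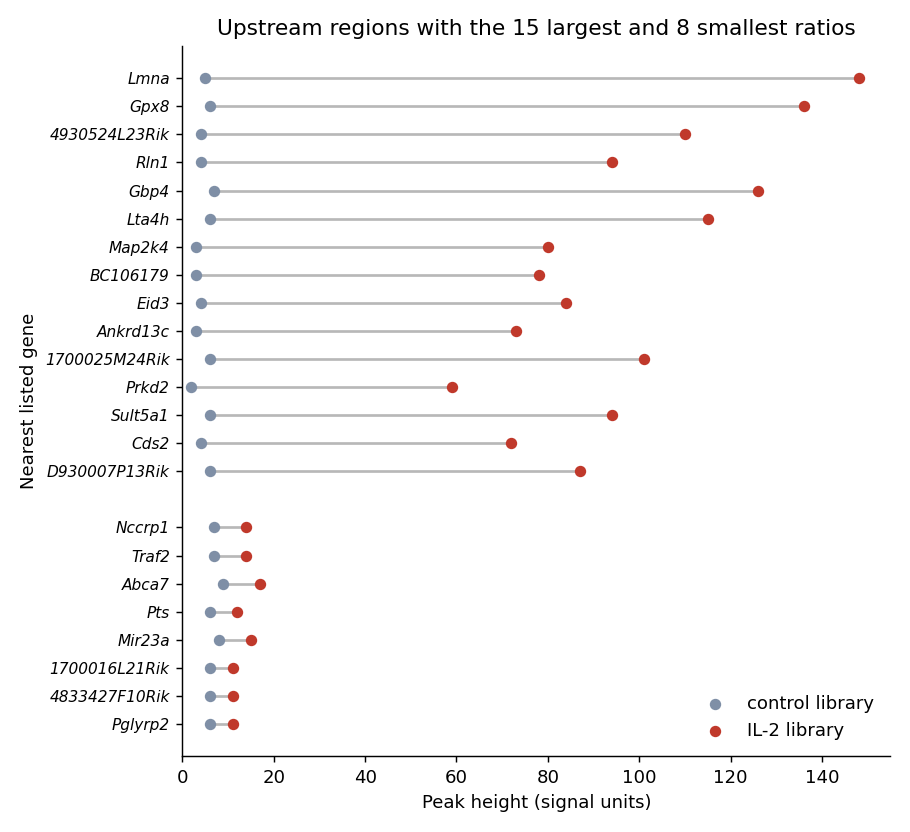
Peak height in signal units (horizontal axis) in the control library (grey) and the IL-2 library (red) for upstream regions with the 15 largest ratios (upper block) and the 8 smallest (lower block), each named by its nearest listed gene. Control heights are 2 to 7 in the upper block and 6 to 9 in the lower, and IL-2 heights are 59 to 148 and 11 to 17.

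Control signal was high at few upstream regions. A control height of 10 or more was found at 5 of 314, against 15 of all 2245 regions. Highest was Txndc11, where a region 9564 bp upstream, within Zc3h7a, had 81 with IL-2 and 40 in control. Its log2 ratio was 0.93 as deposited and -1.08 after scaling to the same median, the 1 ratio among the 314 at or below 0.5 on that scale. It was also the 1 upstream region within 1 kb of an interval called in the control library, of which the table lists 11. Mir29b-1 followed with 11 and 66 (2.15). Sidt1 had 11 and 42, a log2 ratio of 1.55 that became -0.20 when the libraries were scaled to the same median.

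The lists of T cell and signalling genes had many upstream regions and few heights. The 16 lists held 355 genes in the table, and 106 of them (29.9%) were nearest to an upstream region, against 13.8% of all listed genes. Listed T cell genes also had more regions each (median 2 against 1). Among genes with 1 region, 14.3% (19 of 133) of list genes were nearest to an upstream region and 8.36% of other genes. Among genes with 2 the shares were 31.7% and 19.2%, with 3 or 4 regions 41.5% and 27.1%, and with 5 or more 47.8% and 20.3%. These counts were not tested, and the lists were chosen with earlier results of these data known. Of the 128 upstream regions at list genes 21 had a height (16.4%), and 18 of the 21 had a ratio of at least 2, near the 80.4% of all regions.

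Genes of the IL-2 receptor and STAT5 pathway had 16 upstream regions at 12 of 35 genes, none with a height of its own. Upstream regions of Il2ra, which encodes the receptor's alpha chain, lay at 4088 and 6472 bp. Il2rb, the beta chain, had 1 at 7862 bp. Stat4, also in this list, had 1 at 3812 bp. Targets and inhibitors with upstream regions were Gzmb at 3964 bp, Ccnd2 at 3960 bp, Mcl1 at 7745 bp, Nfil3 at 1873 and 5393 bp, Dusp5 at 1798 bp and the phosphatase gene Ptpn2 at 5363 and 7507 bp. Lta had 1 at 4409 bp and Tnfrsf4 2. For these genes the table gives only the mean over all their regions, including those that are not upstream. That mean went from 5.5 to 81.17 over 6 regions of Il2ra, from 6 to 83.75 over 4 of Lta, and from 4.5 to 22 over 2 of Gzmb.

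Cytokine receptor genes had 10 upstream regions at 9 of 21 genes. Ifngr2, a subunit of the interferon gamma receptor, had a region 8566 bp upstream with 7 and 54 (log2 ratio 2.30). Il7r at 3372 bp, Il12rb2 at 2135 bp and Il21r at 10149 bp had no height. Cytokine genes had 9 upstream regions at 6 of 19 genes, among them Il10 at 7013 and 9349 bp, Ifng at 5735 bp and Fasl at 6769 bp, and none had a height. The gene mean of Ifng was low in both libraries, at 5 and 12.5 over 2 regions, while that of Fasl was 7 and 89.67 over 3.

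Chemokine and chemokine receptor genes had upstream regions at 9 of 21 genes. Ccr9, a gut homing receptor gene, had 5 and 17 at 6171 bp (log2 ratio 1.14). For Cxcl10, which encodes an interferon-induced chemokine, heights solved from gene means were 4 and 61 at 4807 bp.

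Costimulatory and inhibitory receptor genes had the largest share of the 16 lists, with upstream regions at 16 of 32 genes and 20 in all. Pdcd1, the gene for PD-1, had regions at 2663 and 4759 bp, Tnfrsf9, the gene for CD137, at 2683 and 4763 bp, Icos at 2666 bp and Havcr2 at 8643 bp. The 1 region with a height was that of Klrg1, a marker of terminal effector cells, with 4 and 12 at 6319 bp (log2 ratio 0.92), below the ratio of 2. Cytotoxic effector genes had 8 upstream regions at 6 of 15 genes, again without heights. They included Gzma at 1099 and 3979 bp, Gzmk at 2223 bp and Serpinb9, an inhibitor of granzyme B, at 3133 bp.

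T cell transcription factor genes had 16 upstream regions at 15 of 59 genes. Nr4a1, an immediate early gene of T cell receptor signalling, had 4 and 17 at 8030 bp (log2 ratio 1.29), and Egr1 had 6 and 14 at 4951 bp (0.79). Irf4 at 1162 bp, Irf8 at 10824 bp, Eomes at 1645 bp, Batf3 at 2926 bp and Ikzf2 at 2296 bp had none. Solving heights from gene means, which goes beyond the rule used elsewhere, gave 4 and 122 for the region 2219 bp upstream of Jund and 5 and 60 for that 3876 bp upstream of Junb. Both genes encode AP-1 subunits. The solved log2 ratio of Jund, 3.82, was above all but 1 of the ratios of the 314 regions.

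In the list of PI3 kinase and MAP kinase genes 4 of 26 had an upstream region, and 3 had a height. Beside Map2k4, Akt1 had 6 and 19 at 1228 bp (log2 ratio 1.13). Among T cell receptor signalling genes 8 of 29 had one, with Bcl10 at 5 and 16 and Cd3e at 5 and 15. In the feedback list Rgs3 had 4 and 19 (1.42), and 5 of 25 genes had an upstream region.

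Interferon response genes had 9 upstream regions at 8 of 22 genes, including Gbp4 above, Gbp5 at 2950 bp, Irf1 at 6430 bp and Usp18 at 7602 bp. Only that of Gbp4 had a height. Metabolic genes had 3 at 3 of 13. Slc38a2, which encodes a glutamine transporter, had 7 and 72 at 8494 bp (log2 ratio 2.68), and Odc1, the enzyme that starts polyamine synthesis, had 3 and 15 at 4233 bp (1.32). Adhesion and homing genes had 11 at 7 of 24, with Gcnt1, a glycosyltransferase gene of selectin ligands, at 7 and 39 (1.87) and Icam2 at 2 and 10 (1.10). Survival genes had 7 at 6 of 18, including Birc2 and Traf2 above and Bcl2l11, the gene for the apoptosis inducer BIM, at 8214 bp. Chromatin enzyme genes had 3 at 3 of 21, with Setdb1 at 5 and 25 and Dnmt1 at 4 and 14. Cell cycle genes had 2 at 2 of 12.

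Binding data hold no transcript levels, so the labelled cell type could be looked at only through which marker genes had regions. All 10 T cell markers looked up were in the table, and 4 of them were nearest to an upstream region: Cd8a (3843 and 9203 bp), Cd3e, Cd2 (1629 and 3229 bp) and Thy1. Other lineages had few genes in the table, so their counts say little about cell type. Cd22, the 1 B cell marker in it, had an upstream region with 5 and 16, and 1 of 3 myeloid markers, Xcr1, had 1 without a height. Neither the 1 erythroid marker nor any of 3 unrelated tissue genes was nearest to one.

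Most genes had a single upstream region. There were 599 genes with 1, 72 with 2, 9 with 3 and 1 with 4. Of the 681 genes, 163 also had a region within 1 kb of the start, 194 had one inside the gene beyond 1 kb, and 283 had no other region at all. The noncoding gene Gm16619 had the 4, at 1429, 3381, 6789 and 9461 bp, and a mean over its 5 regions of 5.4 in control and 25.4 with IL-2. Thy1, a surface glycoprotein of T cells, had upstream regions at 3288, 6008 and 8952 bp and a mean over 4 regions of 5 and 34.25. Sema4d, a semaphorin gene, had them at 4244, 7284 and 8916 bp among 13 regions, with a mean of 5.39 and 40.85.

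Arhgef3, a guanine exchange factor gene, had a mean of 4.33 and 27.33 over 6 regions, and Rcsd1 of 5 and 35.2 over 5. Oxsm had 5.2 and 37.6 over 5, but its upstream regions all lie within Ngly1. Likewise those of Gm20033 lie within Klf3, which encodes a transcriptional repressor, and those of Mir21 within Vmp1. For 3 of these 10 genes, then, "upstream" describes the inside of a neighbour. Ly6c2 and E430016F16Rik had upstream regions only, 3 each, with means of 5.33 and 18 and of 6 and 27.33.

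**Figure D5:**
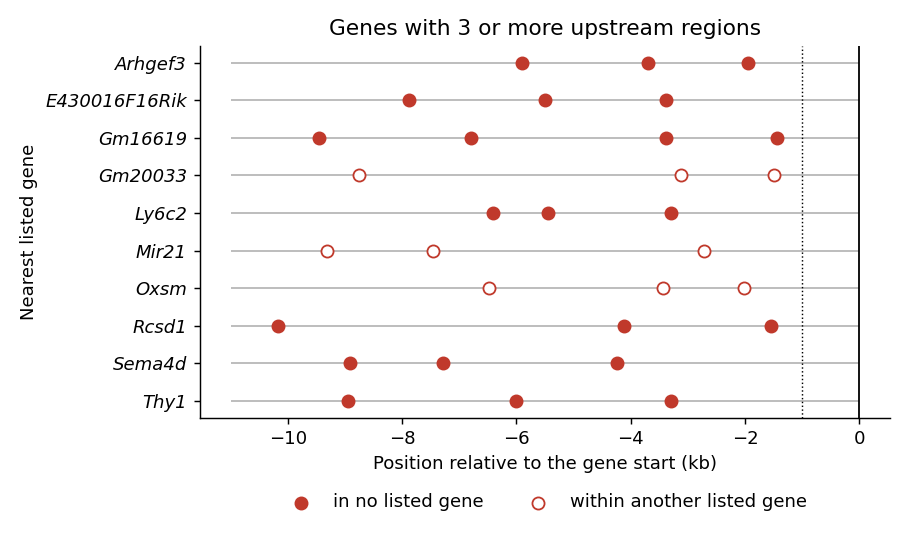
Positions of upstream regions relative to the gene start (0 kb, solid line) for the 10 genes with 3 or more; the dotted line marks 1 kb upstream. Open circles, at Gm20033, Mir21 and Oxsm, lie within another listed gene, and filled circles lie in none.

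Where all regions of a gene were upstream, the gene mean describes upstream regions alone. This held for 27 genes with 57 regions between them. Their median log2 ratio was 1.55, and all 27 had a ratio of at least 2. Among the means of all 1642 genes with several regions, 91.7% had such a ratio, and the median log2 ratio was 1.65. Tceb3, an elongin A gene, had a mean of 5.5 in control and 68.5 with IL-2 and a highest peak of 118. Klri2 (5 and 51) and Klrb1b (5 and 43.5) encode killer cell lectin-like receptors. Ms4a4b, a membrane protein gene expressed in T cells, had the lowest ratio of the 27, with 4.5 and 14.5.

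Upstream regions nearest to miRNA genes, singled out after their values were seen, numbered 28 at 22 genes, and RefSeq gave the miRNA type for 26 of the 28. A height was known for 12, with an IL-2 median of 31, and 10 of the 12 had a ratio of at least 2, near the 80.4% of all regions. For miRNAs the start in the table is that of the hairpin, and the primary transcript can begin farther upstream. Mature RNAs of some of the genes at the 5 regions with the highest IL-2 heights are shown, 1 arm each, to make clear which of those shown share a seed. Sequences are from RefSeq, 5′ to 3′, and capitals mark the seed (bases 2 to 8).
mmu-miR-155-5p: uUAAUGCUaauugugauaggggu
mmu-miR-17-5p: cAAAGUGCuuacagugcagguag
mmu-miR-20a-5p: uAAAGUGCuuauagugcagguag
mmu-miR-29b-3p: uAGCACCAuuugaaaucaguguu
mmu-miR-29a-3p: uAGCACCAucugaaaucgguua
mmu-miR-3968: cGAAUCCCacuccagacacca
mmu-miR-101a-3p: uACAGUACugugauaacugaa

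Mir155, a miRNA gene known for its part in effector T cell responses, had a region 10908 bp upstream with 7 and 82 (log2 ratio 2.86). The RefSeq start of its host transcript Mir155hg lies 9791 bp from that region. Mir17, the first hairpin of a polycistronic cluster, had 4 and 51 at 3447 bp (2.64). The same region is listed 3933 bp upstream of Mir20a, whose mature RNA shares the seed AAAGUGC with miR-17. It is also listed upstream of Mir18, Mir19a, Mir19b-1 and Mir92-1, whose RNAs are not shown. Of these, miR-19a-3p and miR-19b-3p share the seed GUGCAAA. One region, with 11 and 66, served both Mir29b-1 and Mir29a, which share the seed AGCACCA. Mir101a had 5 and 46 at 2605 bp (2.35), and Mir3968 had 3 and 48 (2.73). The region upstream of the Mir23a cluster, at 8 and 15, was at the other extreme. All these regions were higher with IL-2 as deposited, and their number is too small for a statement on miRNA genes as a class.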

How the data were processed

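The samples were 1 control and 1 IL-2 ChIP-seq library. The tool BWA and the build mm10 are named per the submitters' processing notes. The deposited table gives peak heights as signal values per gene, averaged by the authors over the gene's regions, and the distance of each region to each gene start. The peak caller, library depths and scaling were not given in the sources used here, so the depth behind a height is unknown.

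Region positions were computed from gene starts and distances, and each region was taken once, with its nearest gene. A region's height was taken from a gene with 1 active region. Ratios used a pseudocount of 5 and were counted at 2 and 4. Gene names were matched to RefSeq GRCm38.p6 (4799 of 4934 genes, 737 of 774 members), and windows of 300 bases came from its promoter table. The table held 0 value columns from samples outside the series. Shares have 95% Wilson intervals. Python 3.11.15, pandas 2.3.3, numpy 2.4.6 and scipy 1.17.1 were used, and the steps were tested on simulated data.

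Named were the 15 largest and 8 smallest ratios, the 3 highest control heights, members at genes of 20 lists (by counts and examples), genes with 3 or more members, the 5 regions on each side of the distance limit and the 3 farthest. Some items that this rule took are not reported here. Members and lists were chosen with earlier results of these data known. Alternatives changed the distance limit, the assignment to genes, the pseudocount, the size rule, the scaling, the filter on signal and the source of heights.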

Additional observations from a re-analysis of the deposited data

How the results depend on the processing

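No paired analysis was possible because control and IL-2 were 1 library each, and for the same reason no replicate could be left out. With a limit of 5000 bp in place of 1000 bp there were 347 upstream regions, and 128 had a ratio of at least 2. With regions upstream of every listed gene only, these counts were 505 and 156. The size rule of 4 left 86 regions. Scaling the libraries to the same median, which centres all regions near equal heights by construction, left 42 and a median log2 ratio of 0.10. It turned 10 log2 ratios of named regions negative: Sidt1 to -0.20, Txndc11 to -1.08, Abca7 to -0.95, Mir23a to -0.93, Nccrp1 and Traf2 to -0.84, Pts to -0.80, and 1700016L21Rik, 4833427F10Rik and Pglyrp2 to -0.88. The median log2 ratio was 2.06 with a pseudocount of 1, 1.12 with 10, and 1.86 over regions of higher signal, by their construction. The counts of members at limits of 500 and 2000 bp (943 and 627) and without RefSeq starts within 1 kb (710) stayed within 1.5 times of 774. So did the counts with a ratio of at least 2 with heights solved from gene means (287), with heights from the nearest gene only (237) and with pseudocounts of 1 and 10 (306 and 183). Leaving out the 1 region near a control interval, chosen after seeing the data, left 264 regions and a median of 1.49. Over 26 named regions with pseudocounts of 1 and 10 and the scaling, 66 log2 ratios kept their sign and their side of a ratio of 2, 2 kept the sign but crossed a ratio of 2, and 10 changed sign. Without read counts and replicates, neither the read counting error of a height nor the spread between cultures is known, and heights are missing for 460 of the 774 regions. The Wilson intervals count regions only and cover neither.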

Other observations

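Some upstream regions of high signal fell outside the rule for named genes and were chosen after their values were seen. Rsph3a had a region 5678 bp upstream with 10 in control and 111 with IL-2, and that region lies 13936 bp from the start of Tagap and downstream of it. S1pr4, a receptor for sphingosine phosphate in lymphocytes, had 8 and 80 at 10263 bp, in a region that lies within Gna15. Zfp36, which encodes a protein that destabilises cytokine mRNAs, had 7 and 71 at 1988 bp. Trbv19, a variable segment of the T cell receptor beta locus, had 5 and 66 at 1309 bp. Mllt6 had 7 and 82 at 3284 bp, and Arid2, a subunit gene of a chromatin remodelling complex, had 6 and 52 at 2754 bp. The height of the Car14 region, solved from gene means, was 6 in control and 77 with IL-2.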
